A study of Mus musculus with 2 samples.

Results

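Foxp3 and 7 genes used as markers of regulatory T cells were followed in divided donor CD4 T cells of the allergic mouse lung: the transcription factors Foxp3, Ikzf2 (Helios) and Ikzf4 (Eos), the surface proteins Izumo1r (folate receptor 4), Nrp1 (neuropilin-1), Lrrc32 (GARP) and Gpr83, and the actin-capping protein Capg. These 8 genes were taken by symbol from the 32285 genes of the UMI tables; the rule uses no measured value, but the list was drawn up with earlier results of these cells known. They were read in 156 cells recovered from MARCH1-/- hosts and 352 cells recovered from WT hosts, each with 500 UMIs or more, 250 or more genes seen and no more than 10% of its UMIs from mitochondrial genes. A UMI (unique molecular identifier) tags 1 captured transcript, and the libraries read the 3′ ends of polyadenylated RNA.

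Wild-type donor mice inhaled house dust mite extract on day 0 and on days 7 to 11, and on day 14 their lung CD4 T cells were dyed with Cell Trace Violet and given to MARCH1-/- or C57BL/6 (WT) hosts. The hosts were then given the same extract, and 4 days after that challenge the donor cells that had diluted the dye were sorted from their lungs, giving 1 library per host genotype. MARCH1 is a ubiquitin ligase that removes MHC class II and CD86 from the surface of antigen-presenting cells, and the series asks how its loss in the host alters the donor T cells. The donor cells carried intact March1 in both groups, so its level in them does not check the host genotype, and the number of animals behind each library, their age and their pooling are not stated in the sources used here.

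Foxp3 is the lineage-defining transcription factor of regulatory T cells, which restrain other T cells and limit allergic inflammation of the airways. Helios and Eos are zinc-finger factors of the Ikaros family that act with Foxp3, GARP holds latent TGF-β at the surface of activated regulatory T cells, and neuropilin-1 and Helios have been used to tell regulatory T cells made in the thymus from those induced in tissues. Several of these genes are also switched on in conventional T cells after activation, so each was asked here how closely it followed Foxp3 from cell to cell and whether its level differed between the hosts.

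On build GRCm38 (GENCODE M21) the genes lie at chrX:7573644-7595245 on the plus strand (Foxp3), chr1:69531214-69687245 on the minus strand (Ikzf2), chr10:128630843-128645991 on the minus strand (Ikzf4), chr8:128358604-128503363 on the plus strand (Nrp1), chr7:98489283-98502181 on the plus strand (Lrrc32) and chr6:72544391-72562983 on the plus strand (Capg). Gpr83 at chr9:14860210-14870789 on the plus strand and Izumo1r at chr9:14885814-14903949 on the minus strand point at each other, with 15024 bases and 0 annotated genes between them. Foxp3 shares 1437 bases at its 3′ end with Ccdc22 on the other strand, its whole 21602 bases with the noncoding gene Gm36995, also on the other strand, and 7384 bases, away from its 3′ end, with Flicr on its own strand. Ikzf2 shares 16494 bases at its 3′ end with the antisense gene Gm29114. The sources used here do not say whether the counting used strand, so Foxp3 and Ikzf2 UMIs cannot be fully told apart from reads of these overlapping genes.

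The RefSeq promoter table (build GRCm38.p6) held 6 windows for 5 of the 8 genes, and the 250 bases before the transcript start are shown for Foxp3, which defines the cells compared here, and for the facing neighbours Izumo1r and Gpr83, of which only Izumo1r was seen in more than 1 cell. The windows are chrX:7579426-7579675 on the plus strand for the upstream one of the 2 Foxp3 entries, chr9:14903768-14904017 on the minus strand for Izumo1r and chr9:14859960-14860209 on the plus strand for Gpr83. Each is written 5′ to 3′ on the strand of its gene, with a match to TATAAA in capitals.
Foxp3: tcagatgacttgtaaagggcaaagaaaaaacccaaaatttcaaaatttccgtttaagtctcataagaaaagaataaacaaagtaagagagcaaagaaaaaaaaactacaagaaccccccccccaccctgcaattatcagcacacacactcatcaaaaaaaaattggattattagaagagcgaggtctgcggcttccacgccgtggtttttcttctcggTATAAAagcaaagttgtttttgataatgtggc
Izumo1r: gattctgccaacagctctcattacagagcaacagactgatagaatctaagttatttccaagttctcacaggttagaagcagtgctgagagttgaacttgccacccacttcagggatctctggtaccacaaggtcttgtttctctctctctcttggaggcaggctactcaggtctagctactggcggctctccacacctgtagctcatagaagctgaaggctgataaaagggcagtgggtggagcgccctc
Gpr83: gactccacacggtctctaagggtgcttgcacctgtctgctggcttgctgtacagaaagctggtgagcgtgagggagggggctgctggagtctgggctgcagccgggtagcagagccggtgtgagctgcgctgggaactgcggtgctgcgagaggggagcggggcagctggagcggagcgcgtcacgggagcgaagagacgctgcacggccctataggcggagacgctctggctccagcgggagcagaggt
The Foxp3 window shown held 1 TATAAA, starting 32 bases before the transcript start, a word found on either strand in 12.4% of 32851 windows of the same length and on the gene's strand in 7.59%. The other Foxp3 window, chrX:7580233-7580482, held none and was 46% G or C with 7 CpG dinucleotides. The windows shown also differed in base composition: the Foxp3 window was 37.6% G or C with 6 CpG dinucleotides, the Izumo1r window 50% with 2 and the Gpr83 window 66.8% with 18, against a median of 52.4% and 6 over all windows. The forkhead word TGTTTAC, present in 3.17% of all windows, was on neither strand of these 3. The E box word CACGTG, present in 6.02% of windows, was missing from them too, as was the AP-1 word TGACTCA, present in 4.46%. These matches describe the letters of the windows and carry no information on binding.

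The MARCH1-/- host library held 1934068 UMIs in all and a median of 8017 per kept cell, and the WT host library held 3753437 and a median of 6086.5. Genes of the CD4 T cell were detected throughout, with a Cd3d UMI in 151 of 156 and 331 of 352 cells, and all markers of natural killer cells (4 of 4 listed) and neutrophils (4 of 4 listed) were at 0 in both libraries, as were Ms4a1, Cd8a, Csf1r and Itgax. Levels are given as UMIs per 1000000 UMIs (CPM) summed over cells. With 1 library per group no test could be run, and every interval is a 95% interval of counting error alone, which is too narrow where a few cells hold many of a gene's UMIs.

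Foxp3 was seen in a similar minority of the cells from both hosts. At least 1 Foxp3 UMI was found in 24 of 156 cells of the MARCH1-/- host library (15.4%, exact binomial interval 10.1 to 22.0%) and in 46 of 352 cells of the WT host library (13.1%, 9.73 to 17.0%). The difference of 2.32 percentage points had a Newcombe interval of -3.90 to 9.52 points, so a difference in either direction of several points was not detectable at this depth. The summed level was 35.5 CPM (56 UMIs, exact Poisson interval 26.8 to 46.2) in the MARCH1-/- host library and 37.3 CPM (96 UMIs, 30.2 to 45.6) in the WT host library, a log2 ratio of -0.07 (-0.57 to 0.42). The intervals of the levels overlapped widely.

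Foxp3 was sparse even where it was seen. In the MARCH1-/- host library 10 of the 24 positive cells held a single Foxp3 UMI and the highest cell held 7, and in the WT host library 22 of the 46 held a single UMI and the highest held 8. Some cells without a Foxp3 UMI may therefore still transcribe the gene, and "Foxp3-positive" below means only that at least 1 UMI was captured. When each cell was thinned to 1000 UMIs, the share expected over all draws was 4.83% in the MARCH1-/- host library and 3.86% in the WT host library, from 156 and 341 cells, with 11 shallower WT host cells left out; 1 random draw gave 7.69% and 4.11%. Low barcodes (up to 100 UMIs) held a mean of 2.70 UMIs in the MARCH1-/- host library and 6.52 in the WT host library. If each cell held that many loose UMIs, a Foxp3 UMI would be expected in 0.007% and 0.034% of cells. These shares follow from that assumed load, and the load of a cell was not measured. Foxp3 had 27.6 and 52.5 CPM in the low barcodes, against 35.5 and 37.3 CPM in the kept cells. No other cell type was present in which to read a background share, and the part of loose RNA was not tested. Median depth was 6400.5 UMIs in positive and 8345 in negative cells of the MARCH1-/- host library, and 6596.5 in positive and 5925.5 in negative cells of the WT host library.

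Among the other genes with at least 50 UMIs over both libraries, Ikzf2 marked Foxp3-positive cells most clearly in each library. In the MARCH1-/- host library it reached 426 CPM (345 to 520) in Foxp3-positive cells, against 124 CPM (106 to 145) in Foxp3-negative cells. In the WT host library it reached 408 CPM (344 to 479) in Foxp3-positive cells, against 99.5 CPM (86.8 to 114) in Foxp3-negative cells. The ratios were 3.42 (exact conditional interval 2.63 to 4.42) and 4.09 (3.30 to 5.07), and the intervals of the levels did not overlap in either library. An Ikzf2 UMI was found in 21 of 24 Foxp3-positive and 53 of 132 Foxp3-negative cells of the MARCH1-/- host library, and in 32 of 46 and 91 of 306 cells of the WT host library. The level did not hang on the cells richest in Foxp3: cells with a single Foxp3 UMI had 532 CPM of Ikzf2 in the MARCH1-/- host library and 323 CPM in the WT host library, and cells with 2 or more had 388 and 476 CPM.

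Ikzf2 was the only one of the 7 genes with a ratio of at least 2 in Foxp3-positive cells among those with at least 50 UMIs in all, in the MARCH1-/- host library (1 of 5) and in the WT host library (1 of 5). Over all 6761 genes with that many UMIs, 4.02% reached this ratio in the MARCH1-/- host library and 2.96% in the WT host library, and the median ratio was 0.983 and 0.982. Lrrc32 and Gpr83 fell under the 50 UMIs and could not enter this count. Ikzf2 was nevertheless not restricted to Foxp3-positive cells, which held 36.4% of its UMIs in the MARCH1-/- host library and 40.1% in the WT host library. Of the cells with an Ikzf2 UMI, 28.4% in the MARCH1-/- host library and 26.0% in the WT host library also had a Foxp3 UMI.

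**Figure D1:**
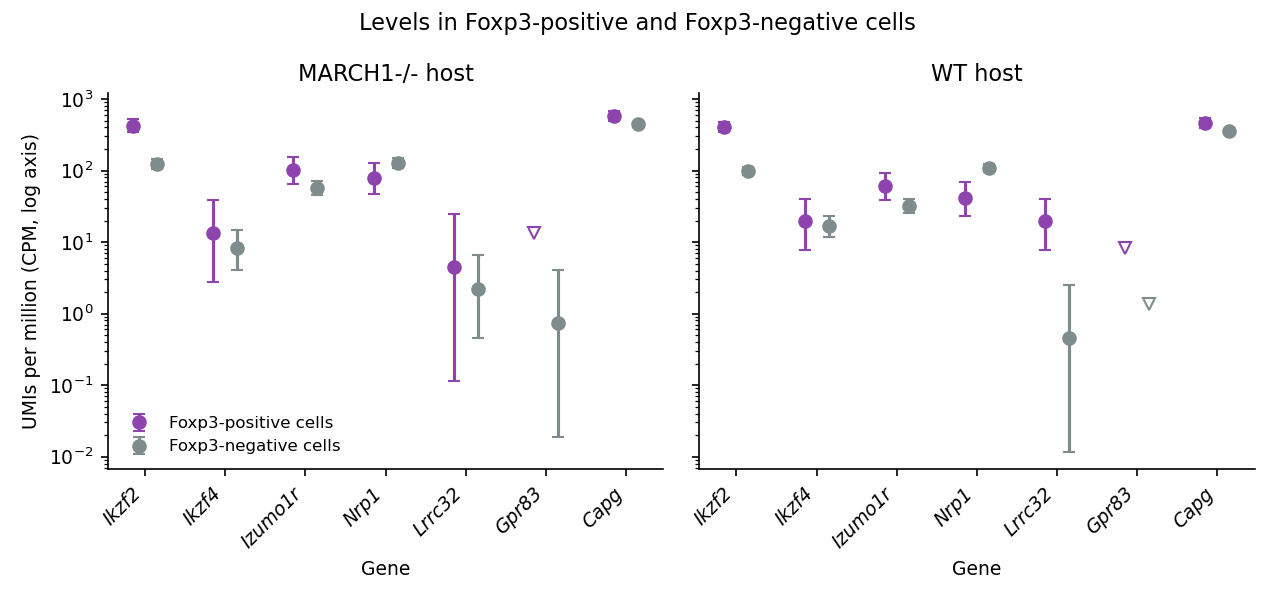
Summed level of the 7 other genes in CPM (log axis) in Foxp3-positive cells (purple, left) and Foxp3-negative cells (grey, right) of the MARCH1-/- host library (24 and 132 cells) and the WT host library (46 and 306 cells). Points are summed levels, bars are 95% Poisson intervals of counting error, and open triangles mark a gene at 0 UMIs, drawn at 3 counts. Ikzf2 stands apart in both libraries (426 against 124 CPM and 408 against 99.5 CPM), while Nrp1 lies lower in Foxp3-positive cells of the WT host library (41.6 against 108 CPM).

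The related factor Ikzf4 was too sparse to place. Its 14 UMIs in the MARCH1-/- host library gave 13.3 CPM (2.74 to 38.9, 3 UMIs in 2 cells) in Foxp3-positive cells and 8.15 CPM (4.07 to 14.6) in Foxp3-negative cells, and its 44 UMIs in the WT host library gave 19.4 CPM (7.80 to 40.0, 7 UMIs in 6 cells) and 16.7 CPM (11.8 to 23.1). The intervals overlapped in both libraries. The remaining Ikaros genes of the same family did not follow Foxp3 either: Ikzf1 had ratios of 0.56 in the MARCH1-/- host library and 0.81 in the WT host library, Ikzf3 (Aiolos) 1.28 and 1.27, and Ikzf5 0.58 and 0.97.

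Among the surface genes, Izumo1r was higher in Foxp3-positive cells, by less than 2-fold in the main setting and by more under some others. Its level was 102 CPM (64.6 to 153) in Foxp3-positive and 57.8 CPM (45.7 to 72.1) in Foxp3-negative cells of the MARCH1-/- host library, and 61.0 CPM (38.2 to 92.3) in Foxp3-positive and 32.1 CPM (25.1 to 40.5) in Foxp3-negative cells of the WT host library. The ratios of 1.76 (1.06 to 2.84) and 1.90 (1.12 to 3.1) lay above 1, although the intervals of the levels overlapped. Most of its UMIs came from Foxp3-negative cells, which held 78 of 101 UMIs in the MARCH1-/- host library and 71 of 93 in the WT host library. The log2 ratio of 0.82 in the MARCH1-/- host library became 1.89 without the cluster led by cell cycle genes and 2.07 with each cell weighted equally. It fell to 0.43 when Foxp3-positive meant at least 2 UMIs. In the WT host library the log2 ratio of 0.93 became 1.39, 1.42 and 1.41 under the same settings in turn, each past 2-fold. It lay between 0.90 and 1.62 over all settings. With cells thinned to 1000 UMIs, an Izumo1r UMI was expected in 16.4% of Foxp3-positive and 4.91% of Foxp3-negative cells of the MARCH1-/- host library. In the WT host library these shares were 7.74% and 3.24%.

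Nrp1 did not mark the Foxp3-positive cells and was lower in them in the WT host library. Its level there was 41.6 CPM (23.3 to 68.6) in Foxp3-positive cells, against 108 CPM (94.9 to 123) in Foxp3-negative cells, a log2 ratio of -1.38 (-2.24 to -0.63). An Nrp1 UMI was found in 9 of 46 Foxp3-positive and 137 of 306 Foxp3-negative cells of that library. In the MARCH1-/- host library the levels were 79.8 CPM (47.3 to 126) in Foxp3-positive and 127 CPM (109 to 148) in Foxp3-negative cells, with a log2 ratio of -0.67 whose interval of -1.46 to 0.03 included no change. That ratio moved to 0.05 without the cycling cluster, 0.02 with cells weighted equally and -1.61 when Foxp3-positive meant at least 2 UMIs, whereas in the WT host library the value stayed between -1.88 and -1.25 under all alternatives that gave one. Genes lower by at least 2-fold made up 8.64% of all genes in the WT host library and 11.4% in the MARCH1-/- host library.

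The few Lrrc32 UMIs of the WT host library lay mostly in Foxp3-positive cells. There 7 of 8 UMIs came from 5 Foxp3-positive cells and 1 from a Foxp3-negative cell, giving 19.4 CPM against 0.452 CPM and a ratio of 42.9 with an interval of 5.51 to 1933. All 6 of its Lrrc32 cells also held an Ikzf2 UMI, where 2.10 would be expected from the shares over all cells if the genes were unrelated. That expectation takes no account of depth or of Foxp3, and 32 of the 46 Foxp3-positive cells of this library held an Ikzf2 UMI. In the MARCH1-/- host library 1 of 4 UMIs came from a Foxp3-positive cell, with 4.43 CPM in Foxp3-positive against 2.22 CPM in Foxp3-negative cells, and all 3 of its Lrrc32 cells again held an Ikzf2 UMI. Gpr83, a G-protein-coupled receptor, had 1 UMI in a Foxp3-negative cell of the MARCH1-/- host library and 0 in the WT host library. A count of 0 allows up to 13.3 CPM (3 UMIs) in the Foxp3-positive cells of the MARCH1-/- host library and 8.32 CPM in those of the WT host library.

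Capg was seen in most cells of both libraries and was slightly higher in Foxp3-positive ones. In the MARCH1-/- host library it had 581 CPM (486 to 689) in Foxp3-positive and 445 CPM (410 to 482) in Foxp3-negative cells, and in the WT host library 466 CPM (398 to 542) in Foxp3-positive and 357 CPM (332 to 383) in Foxp3-negative cells. The ratio was 1.30 in both, with intervals of 1.07 to 1.58 and 1.10 to 1.54. A Capg UMI was found in 23 of 24 Foxp3-positive and 116 of 132 Foxp3-negative cells of the MARCH1-/- host library, shares whose intervals overlapped. In the WT host library it was found in 42 of 46 Foxp3-positive cells (91.3%, 79.2 to 97.6%) and 226 of 306 Foxp3-negative cells (73.9%, 68.6 to 78.7%), with no overlap.

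Taken per cell, the 7 genes accompanied Foxp3 in small numbers. Of the 24 Foxp3-positive cells in the MARCH1-/- host library, 16 held UMIs of 3 or more of the other 7 genes, as did 50 of 132 Foxp3-negative cells. In the WT host library 18 of 46 Foxp3-positive and 79 of 306 Foxp3-negative cells did so. No cell held more than 5 of the 7 genes.

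The genes whose pattern was most like that of Foxp3 were ranked over 6480 genes by the smaller of the lower bounds of their ratio in the 2 libraries, and none of the other 7 genes could enter this ranking. Itgae, the CD103 integrin chain that binds E-cadherin of epithelium, came first, with 120 CPM in Foxp3-positive and 7.41 CPM in Foxp3-negative cells of the MARCH1-/- host library (ratio 16.2) and 83.2 and 2.26 CPM in the WT host library (36.8). Gzmb, the protease granzyme B, had ratios of 9.58 in the MARCH1-/- host library and 25.3 in the WT host library, and Klrg1, a receptor of terminally differentiated effector and regulatory T cells, 4.64 and 7.94. Others among the first 10 were Cxcl10 (8.57 and 4.10), the interferon-inducible GTPase Iigp1 (9.73 and 3.83), Glrx (2.45 and 3.02), the inhibitory receptor Ctla4 (2.10 and 2.26), Gbp3 (3.05 and 2.97) and Arl5c (3.18 and 4.09). Few cells carried some of these: Itgae UMIs lay in 9 of 24 and 11 of 46 Foxp3-positive cells, Gzmb UMIs in 8 and 17, and the 53 and 73 Cxcl10 UMIs in only 4 and 6 of them. The genes were chosen by these ratios, so the values describe them and carry no test.

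**Figure D2:**
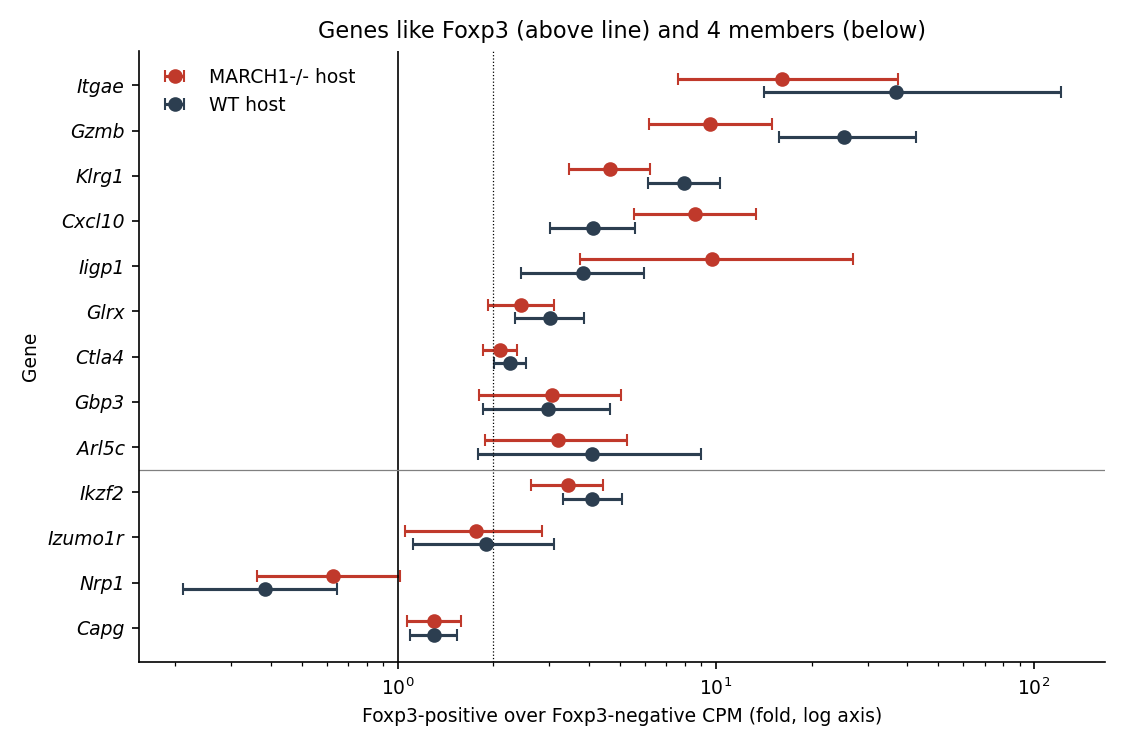
Ratio of the summed level in Foxp3-positive cells over Foxp3-negative cells (log axis) for 9 of the 10 genes most like Foxp3 and, below the grey line, Ikzf2, Izumo1r, Nrp1 and Capg, in the MARCH1-/- host library (red, upper point) and the WT host library (dark, lower point). Bars are 95% intervals of counting error, and the dotted line marks a ratio of 2. Itgae (16.2 and 36.8) and Gzmb (9.58 and 25.3) lie farthest right, Ikzf2 (3.42 and 4.09) lies among the leading genes, and Nrp1 (0.63 and 0.38) lies left of 1.

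Other surface genes of regulatory T cells included several that followed Foxp3. Of 17 measured genes in a list of 18, 7 were at least 2-fold higher in Foxp3-positive cells of the MARCH1-/- host library and 8 in those of the WT host library, with 5 in both, where 4.02% and 2.96% of all genes were. The median ratio of the list was 1.94 and 1.56, beside 0.983 and 0.982 over all genes. Besides Itgae, Klrg1 and Ctla4, the costimulatory receptors Tnfrsf9 (2.70 in the MARCH1-/- host library and 3.06 in the WT host library) and Tnfrsf1b (2.48 and 2.16) passed in both. Il2ra, the IL-2 receptor chain CD25, had ratios of 2.54 and 1.56, Icos 1.94 and 2.02, Tnfrsf4 (OX40) 1.88 and 1.31, and Tnfrsf18 (GITR) 1.57 and 1.55. Cd83 was the list's only gene at least 2-fold lower in both, with 0 of 46 UMIs in Foxp3-positive cells of the MARCH1-/- host library and a ratio of 0.18 in the WT host library.

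Of 7 measured genes for secreted or suppressive products, Gzmb alone was at least 2-fold higher in both libraries. Il10 had 222 CPM in Foxp3-positive and 68.9 CPM in Foxp3-negative cells of the MARCH1-/- host library (ratio 3.22, 2.23 to 4.59), and 194 and 138 CPM in the WT host library (1.40, 1.07 to 1.82). Areg had ratios of 1.71 and 1.23, and Tgfb1 0.79 and 0.95. Of the 22 measured regulators and partners of Foxp3, 0 were at least 2-fold higher in the MARCH1-/- host library and 1 in the WT host library, and 3 and 4 were at least 2-fold lower. Over all genes, 4.02% in the MARCH1-/- host library and 2.96% in the WT host library were at least 2-fold higher. The shares at least 2-fold lower were 11.4% and 8.64%, and these shares are the background for the counts. Tcf7, a factor of naive and memory T cells, was the one lower in both (0.17 and 0.26). Among 9 factors of tissue regulatory T cells, Prdm1 (Blimp-1) was at least 2-fold higher in both (2.90 and 2.65), and Pparg at least 2-fold lower in both (0.21 and 0.46).

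Il13 and Il4 UMIs were missing from Foxp3-positive cells of the MARCH1-/- host library. In the WT host library both were lower in Foxp3-positive than in Foxp3-negative cells, but Il13 was still present. Il13 had 0 UMIs in the 24 Foxp3-positive cells and 386 CPM in the Foxp3-negative cells of the MARCH1-/- host library, which is at least 29.0-fold lower at a floor of 3 UMIs, and 63.8 CPM against 904 CPM in the WT host library. Il4 had 0 UMIs against 83.7 CPM in the MARCH1-/- host library, at least 6.29-fold lower, and 2.77 CPM (1 UMI) against 215 CPM in the WT host library. The regulators of the type 2 programme differed less, with Gata3 at ratios of 0.86 and 0.46 and Il1rl1, the IL-33 receptor, at 0.84 and 0.73. Of the 7 measured type 2 genes, 4 were at least 2-fold lower in each library, 3 of them in both, and 0 were at least 2-fold higher, beside 11.4% and 8.64% of all genes at least 2-fold lower. Ighm, the immunoglobulin heavy chain listed with B cells, had 377 CPM in Foxp3-positive and 54.1 CPM in Foxp3-negative cells of the MARCH1-/- host library and 77.6 and 11.3 CPM in the WT host library, while Ms4a1 stood at 0; its part in these results was not tested.

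Cells with an Ikzf2 UMI but no Foxp3 UMI had less Itgae and Gzmb than cells with both. In the MARCH1-/- host library the 53 cells with Ikzf2 alone had 6.36 CPM of Itgae, against 130 CPM in the 21 cells with both, and in the WT host library the 91 cells with Ikzf2 alone had 6.89 CPM, against 89.9 CPM in the 32 cells with both. Gzmb had 47.7 CPM with Ikzf2 alone against 266 CPM with both in the MARCH1-/- host library, and 24.8 against 273 CPM in the WT host library. These intervals did not overlap. Itgae and Gzmb were, however, picked for their high ratio in Foxp3-positive cells of these same data, so this direction was largely set in advance. Few cells held the UMIs. Itgae was found in 9 cells with both and 2 with Ikzf2 alone in the MARCH1-/- host library, and in 9 and 3 in the WT host library. Gzmb was found in 7 and 6 cells of the MARCH1-/- host library, and in 11 and 6 of the WT host library. Il13 had 270 CPM in cells with Ikzf2 alone in the MARCH1-/- host library and 1172 CPM in the WT host library, where cells with both had 0 UMIs and 75.5 CPM. Against cells with neither factor, those with Ikzf2 alone had a lower summed level of Il13 in the MARCH1-/- host library (270 against 487 CPM, ratio 0.56, 0.46 to 0.67) and a higher one in the WT host library (1172 against 773 CPM, ratio 1.52, 1.39 to 1.66). An Il13 UMI was found in 17 of 53 against 32 of 79 cells of the MARCH1-/- host library. In the WT host library it was found in 35 of 91 against 77 of 215. The difference between the libraries was not tested. Among Foxp3-negative cells, those with an Ikzf2 UMI still had more Gzmb than those without, at ratios of 6.89 (2.65 to 22.7) in the MARCH1-/- host library and 9.21 (3.03 to 37.4) in the WT host library, from 30 and 18 UMIs in 6 cells each. Ctla4 was higher with Ikzf2 among them too, at ratios of 1.13 in the MARCH1-/- host library and 1.71 (1.52 to 1.94) in the WT host library. Their median depth was 8929 UMIs with and 7660 without an Ikzf2 UMI in the MARCH1-/- host library, and 6929 and 5601 in the WT host library.

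**Figure D3:**
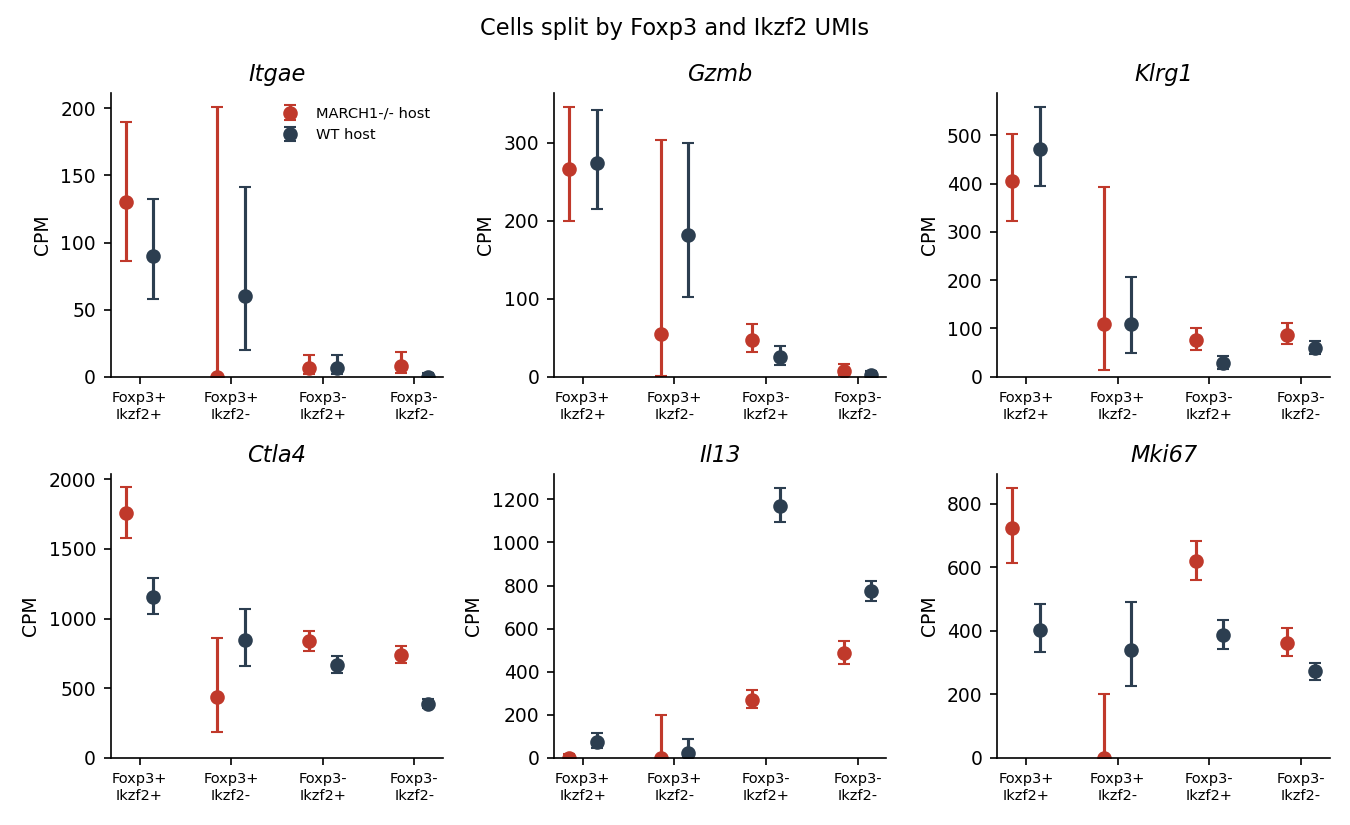
Summed level in CPM of Itgae, Gzmb, Klrg1, Ctla4, Il13 and Mki67 in cells with and without UMIs of Foxp3 and Ikzf2, in the MARCH1-/- host library (red, left) and the WT host library (dark, right), with 95% Poisson intervals of counting error. Itgae was 130 and 89.9 CPM in cells with both factors and 6.36 and 6.89 CPM in cells with Ikzf2 alone, and Il13 showed the opposite order. The class with Foxp3 alone holds only 3 and 14 cells. Itgae, Gzmb, Klrg1 and Ctla4 were picked for their high ratios in Foxp3-positive cells of these same data.

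Among Foxp3-positive cells, those with an Nrp1 UMI had lower summed levels of Klrg1 and Gzmb in both libraries. The 10 Foxp3-positive cells with an Nrp1 UMI in the MARCH1-/- host library had 195 CPM of Klrg1 (119 to 300), against 538 CPM (416 to 684) in the 14 without, and in the WT host library the 9 with an Nrp1 UMI had 51.9 CPM (19.0 to 113), against 547 CPM (458 to 648) in the 37 without. Gzmb was 87.5 against 383 CPM in the MARCH1-/- host library and 77.8 against 335 CPM in the WT host library. The intervals of neither gene overlapped in either library, but few cells held these UMIs. A Gzmb UMI was found in 1 of 10 cells with Nrp1 and 7 of 14 without in the MARCH1-/- host library. In the WT host library it was found in 3 of 9 and 14 of 37. Klrg1 was found in 7 of 10 and 9 of 14 cells of the MARCH1-/- host library, and in 2 of 9 and 19 of 37 of the WT host library. Ikzf2 went opposite ways: 515 CPM (386 to 674) with Nrp1 against 350 CPM (254 to 472) without in the MARCH1-/- host library, and 242 CPM (161 to 350) against 486 CPM (402 to 581) in the WT host library. The summed level of the cell cycle list also turned round, at 3170 against 4010 CPM in the MARCH1-/- host library and 2533 against 1575 CPM in the WT host library. Each class held few cells, and these cell classes were set out with the data in view.

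Between the hosts, levels were read against a background in which the typical gene was higher in the MARCH1-/- host library: the median log2 ratio of 6762 genes with at least 50 UMIs was 0.25. Relative to that median, Ikzf4 alone of the 6 genes with enough UMIs lay past 1.5-fold, and it was lower in the MARCH1-/- host library; 27.7% of all genes were past this fold, 12.6% higher in the MARCH1-/- host library and the rest lower. Its level was 8.89 CPM (4.86 to 14.9, 9 cells) in the MARCH1-/- host library and 17.1 CPM (12.4 to 23.0, 34 cells) in the WT host library, a log2 ratio of -0.95 (-1.93 to -0.05). This direction did not hold with each cell weighted equally, which gave a log2 ratio of 0.45. By that weighting Foxp3-negative cells kept the lower direction, at a mean of 6.95 CPM in the MARCH1-/- host library against 13.6 CPM. Foxp3-positive cells had 91.6 against 21.9 CPM, the first from only 2 cells with an Ikzf4 UMI. In 1 random thinning of cells to 1000 UMIs the log2 ratio over all cells was 0.81 (-1.53 to 3.02), from 3 and 5 cells with a UMI. The shares expected over all draws were nearly equal, at 1.42% in the MARCH1-/- host library and 1.47% in the WT host library.

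Izumo1r had the largest positive difference between the hosts among the 7 genes seen in both libraries. It reached 64.1 CPM (101 UMIs, 52.2 to 77.9) in the MARCH1-/- host library and 36.2 CPM (93 UMIs, 29.2 to 44.3) in the WT host library, with intervals that did not overlap. On the log2 scale the ratio was 0.83 (0.40 to 1.25), or 0.57 after subtracting the median gene, just inside the 1.5-fold limit. An Izumo1r UMI was seen in 34.6% of cells (27.2 to 42.6%) of the MARCH1-/- host library and in 16.8% (13.0 to 21.1%) of the WT host library, and the expected share after thinning to 1000 UMIs was 6.67% and 3.82%. At the mean load of a low barcode, loose RNA would give 0.018% and 0.035%, but the load of a cell was not measured. Izumo1r had 67.4 CPM in the low barcodes of the MARCH1-/- host library and 53.5 CPM in those of the WT host library. The difference was present in Foxp3-negative cells, at 57.8 CPM in the MARCH1-/- host library and 32.1 CPM in the WT host library (log2 ratio 0.85, 0.36 to 1.33). In Foxp3-positive cells the levels were 102 CPM in the MARCH1-/- host library and 61.0 CPM in the WT host library (0.74, -0.17 to 1.65), and whether the difference depends on Foxp3 was not tested.

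By summed level Ikzf2, Nrp1 and Capg lay close to the typical gene. Ikzf2 had 168 CPM (148 to 189) in the MARCH1-/- host library and 143 CPM (129 to 158) in the WT host library, which is 0.23 (-0.00 to 0.46) as a log2 ratio and -0.02 after subtracting the median gene. Counted by cells it stood further apart, with a UMI in 47.4% of cells of the MARCH1-/- host library and 34.9% of the WT host library, a difference of 12.5 points (3.26 to 21.7). Its log2 ratio was 0.57 with each cell weighted equally and 0.92 (0.31 to 1.52) in the thinned draw, where the shares expected over all draws were 15.8% and 12.2%. For Nrp1 the levels were 121 CPM (104 to 139) in the MARCH1-/- host library and 98.8 CPM (87.0 to 112) in the WT host library, or 0.29 and 0.04 on the same 2 log2 scales. Capg had 465 CPM (432 to 500) in the MARCH1-/- host library and 372 CPM (349 to 397) in the WT host library, with no overlap of the intervals, or 0.32 and 0.07 on the log2 scales. Lrrc32 had 2.54 CPM (4 UMIs) in the MARCH1-/- host library and 3.11 CPM (8 UMIs) in the WT host library. Its log2 ratio after subtracting the median gene was -0.55, with a wide interval of -2.73 to 1.35. For Foxp3 over all cells the log2 ratio of -0.07 became -0.32 (-0.83 to 0.17) after the same subtraction. Within Foxp3-positive cells alone Ikzf2 had 426 CPM in the MARCH1-/- host library and 408 CPM in the WT host library, a log2 ratio of 0.06 (-0.32 to 0.44), and Foxp3 itself 248 and 266 CPM (-0.10, -0.60 to 0.39).

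**Figure D4:**
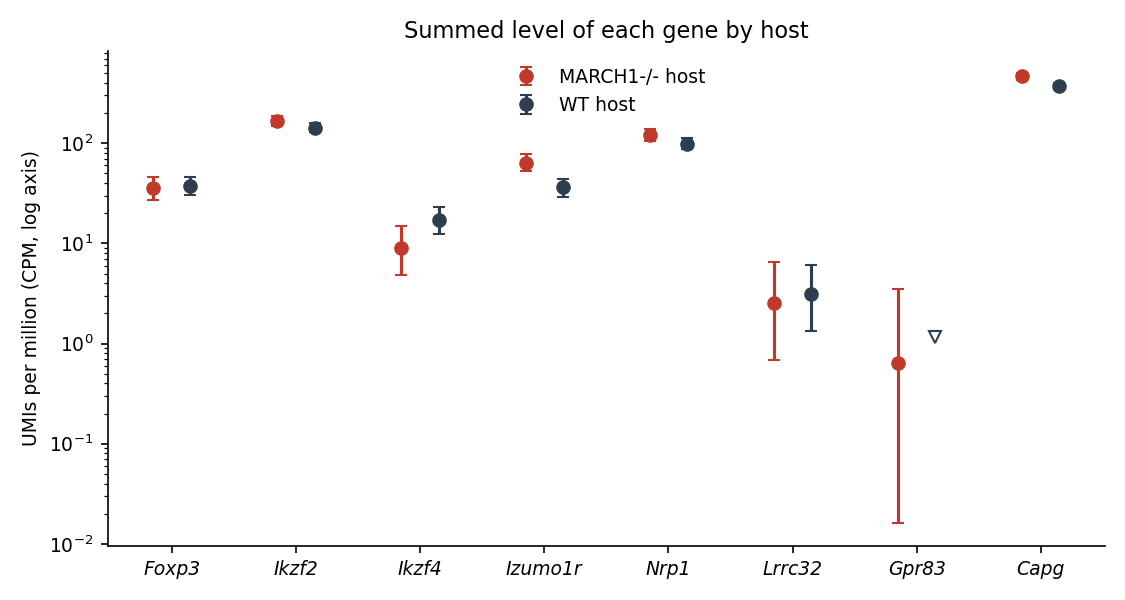
Summed level of the 8 genes in CPM (log axis) over 156 cells of the MARCH1-/- host library (red, left) and 352 cells of the WT host library (dark, right), with 95% Poisson intervals of counting error. The open triangle marks Gpr83 at 0 UMIs in the WT host library, drawn at 3 counts. Izumo1r is higher in the MARCH1-/- host library (64.1 against 36.2 CPM) and Ikzf4 is lower (8.89 against 17.1 CPM). Foxp3 is nearly level (35.5 against 37.3 CPM) before the median gene is subtracted.

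The cells of the 2 hosts were not spread alike over the 5 clusters into which both libraries fell, and what this contributes to the comparisons between hosts was not tested beyond the values given here. A cluster led by histone and mitosis genes held 45 cells of the MARCH1-/- host library and 61 of the WT host library, and a cluster of 40 cells led by Gm12840, Ltb4r1 and Tktl1 held 37 cells of the MARCH1-/- host library and 3 of the WT host library. Without this second cluster Izumo1r had a log2 ratio of 0.96 and joined Ikzf4 past 1.5-fold, and without the cycling cluster Ikzf4 was still past it, at -0.99 relative to the median gene, but had 42 UMIs, under the 50 required. A cluster led by Cxcl10, Sdc4, Tff1 and Foxp3 held 12 of the Foxp3-positive cells of the MARCH1-/- host library and 27 of those of the WT host library. Foxp3 had 168 CPM there in the MARCH1-/- host library and 179 CPM in the WT host library; the clustering used these genes, so this is a description.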

How the data were processed

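The deposited matrices hold whole-number UMI counts per gene and barcode with no normalization, made by the authors from libraries of the 10x Chromium 3′ kit; per the submitters' processing notes the counter was Cell Ranger 3.1.0 with mm10, but version 4 is named per the file headers. The gene annotation was not given in the sources used here. Barcodes with at least 500 UMIs, 250 genes and at most 10% mitochondrial UMIs were kept, which left out 25 and 72 barcodes of the MARCH1-/- host and WT host libraries for mitochondrial share alone; 0 kept barcodes were shared between libraries. Doublets were called with Scrublet (expected rate 0.05; 5 and 5 barcodes) and kept, except in clustering and in an alternative. From the deposited counts, CPM were summed over cells, with exact Poisson, conditional binomial and Clopper-Pearson intervals (95%). Each group has 1 library, so no test was run, and differences between the libraries have no replicate check.

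Clustering used scanpy 1.11.5 and leidenalg 0.10.2 (2000 variable genes, 20 components, 15 neighbours, resolution 0.5, seed 1). Intervals came from scipy 1.17.1, tables from pandas 2.3.3, thinning from numpy 2.4.6 and plots from matplotlib 3.10.9, under Python 3.11.15. Scripts were tested on simulated data. The 8 genes, the lists and the cell classes were chosen with earlier results of these data known. Named genes were the 8, the 10 most like Foxp3 (at least 50 UMIs in all and 10 in each library; 1 of them is not reported here) and, from each list, up to 6 genes with the most UMIs and any past 2-fold in both libraries; Cd83, Tnfrsf1b, Pparg, Ifng and other list members beyond these were named after their values were seen.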

Additional observations from a re-analysis of the deposited data

Results flagged for a closer look

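Ifng, the type 1 cytokine gene, went opposite ways with Foxp3 in the 2 libraries. It was 4.41-fold higher in Foxp3-positive than in Foxp3-negative cells of the MARCH1-/- host library, at 62.1 against 14.1 CPM. In the WT host library its ratio was 0, with 0 UMIs in 46 Foxp3-positive cells against 70.6 CPM in Foxp3-negative cells, which is at least 8.49-fold lower at a floor of 3 UMIs. The 14 UMIs in the MARCH1-/- host library came from 3 Foxp3-positive cells, and 12 of them from 1 cell. The difference between the libraries was not tested.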

How the results depend on the processing

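Of 69 values for single genes between the hosts under other settings, 57 moved by less than their counting interval, 10 moved more and 2 turned round. Of 115 values for Foxp3-positive over Foxp3-negative cells, 105 moved less and 10 more. Turning round was counted only where the main value was past its fold limit. Smaller values changed sign too. Without the cycling cluster Foxp3 between hosts went from -0.07 to 0.12 on the log2 scale and Lrrc32 from -0.29 to 0.12. Nrp1 in Foxp3-positive cells of the MARCH1-/- host library went from -0.67 to 0.05 without that cluster and 0.02 with equal weights. Ikzf2 between hosts went from 0.23 to -0.02 after subtracting the median gene. Both counted reversals concern Ikzf4 between hosts. Its log2 ratio of -0.95 became 0.45 with each cell weighted equally and 0.81 with cells thinned to 1000 UMIs. Thinning also moved Foxp3 between hosts to a log2 ratio of 0.58 (from -0.07). Both thinned values come from 1 random draw: the shares expected over all draws were 1.42% and 1.47% for Ikzf4 and 4.83% and 3.86% for Foxp3, against 1.92% and 1.47%, and 7.69% and 4.11%, in that draw. The count of genes past 1.5-fold between hosts (1) became 0 without the cycling cluster, where Ikzf4 kept its fold (-0.99 on the log2 scale relative to the median gene) but fell to 42 UMIs, under the minimum of 50, and 2 without the cluster held almost wholly by the MARCH1-/- host library, an alternative chosen after seeing the data. It stayed 1 with equal weights and with thinning, but the gene was then Izumo1r (0.71) and Ikzf2 (0.79), both higher in the MARCH1-/- host library. The count past 2-fold in Foxp3-positive cells of the MARCH1-/- host library (1) became 2 without the cycling cluster, where Izumo1r joined Ikzf2. With equal weights it became 3, through Izumo1r and Ikzf4, the latter from 3 UMIs in 2 Foxp3-positive cells. That of the WT host library (1) became 2 without the cycling cluster, 2 with equal weights and 2 when Foxp3-positive meant at least 2 UMIs, each time through Izumo1r. It also became 2, through Lrrc32, when genes needed 1 UMI on each side. Under that last setting 11.1% of all genes passed in the MARCH1-/- host library and 11.9% in the WT host library. The share over all genes was not computed for the other settings, so their counts have no background. Ikzf2 stayed between 1.64 and 2.65 on the log2 scale in the MARCH1-/- host library and between 1.84 and 2.26 in the WT host library. No paired analysis was possible because each group has 1 library and the labels give no replicate numbers. Depth limits Ikzf4, Lrrc32 and Gpr83 most.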

Other observations

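Barcodes left out for a mitochondrial share over 10% also carried Ikzf2. The 25 such barcodes of the MARCH1-/- host library (median 1093 UMIs) had 369 CPM of Ikzf2 from 11 UMIs, and the 72 of the WT host library (median 825 UMIs) had 1123 CPM from 87 UMIs in 22 barcodes, against 168 and 143 CPM in the kept cells. Nrp1 was also higher there than in kept cells, at 335 against 121 CPM in the MARCH1-/- host library and 207 against 98.8 CPM in the WT host library. So was Izumo1r, at 168 against 64.1 and 64.6 against 36.2 CPM, from 5 UMIs each, and Ikzf4, from 1 and 4 UMIs. Capg was lower, at 134 against 465 and 155 against 372 CPM. Foxp3 had 0 UMIs in these barcodes of the MARCH1-/- host library. It had 11 UMIs in 10 barcodes of the WT host library, at 142 CPM against 37.3 CPM in kept cells. In those 10 barcodes Ikzf2 had 2989 CPM, against 780 CPM in the other high-mitochondrial barcodes, a ratio of 3.83 (2.43 to 5.99). Capg had 83.0 CPM (1 UMI) against 168 CPM, from 12 UMIs in all, with an interval of the ratio from 0.01 to 3.40.

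Izumo1r and Ikzf2 UMIs shared more cells than their shares alone would give, although the Ikzf2 level differed with Izumo1r in the WT host library and not beyond its interval in the MARCH1-/- host library. Both had a UMI in 32 cells of the MARCH1-/- host library, where 25.6 would be expected from their shares if they were unrelated, and in 35 cells of the WT host library, where 20.6 would be expected. Over all cells Ikzf2 had 173 CPM with an Izumo1r UMI against 163 CPM without in the MARCH1-/- host library (ratio 1.06, 0.83 to 1.36), and 184 against 132 CPM in the WT host library (1.40, 1.10 to 1.77). Among Foxp3-negative cells, those with an Izumo1r UMI had more Gzmb than those without, at 48.6 against 10.1 CPM in the MARCH1-/- host library and 43.8 against 1.14 CPM in the WT host library. Those Gzmb UMIs lay in only 4 and 5 cells of the MARCH1-/- host library and 7 and 2 of the WT host library. The summed level of Il4 differed in opposite directions with Izumo1r: 43.2 CPM with against 112 CPM without in the MARCH1-/- host library, and 488 against 144 CPM in the WT host library. An Il4 UMI was found in 10 of 41 cells with Izumo1r and 27 of 91 without in the MARCH1-/- host library. In the WT host library it was found in 14 of 49 and 58 of 257. Median depth was 11502 UMIs with and 7907 without an Izumo1r UMI in the MARCH1-/- host library, and 8164 and 5629 in the WT host library. These differences were not tested, and the part of depth in them was not tested.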
